A study of Bos taurus with 15 samples.

Results

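GDF9, BMP15 and BMP6 are ligands of the TGF-beta superfamily that oocytes secrete, and their transcripts were followed here in bovine (Bos taurus) oocytes by RNA sequencing. The genes were chosen by name, and all 3 were found among the 24616 genes of the table. The question behind the study was what a colder cooling liquid and more cryoprotectant do to the oocyte's mRNA during vitrification, in which the cell is solidified as a glass without ice. It comprised 15 libraries, 3 in each of 5 groups: oocytes vitrified in liquid helium at 5.6 M, in liquid helium at 6.6 M, in liquid nitrogen at 5.6 M and in liquid nitrogen at 6.6 M cryoprotective agent, and fresh oocytes that were not vitrified. Oocytes of every group came from the ovary, spent 22 to 24 h at 38.5 °C in maturation medium with LH, FSH and follicular fluid, and were then stripped of cumulus cells with hyaluronidase. The title of the series speaks of immature oocytes but the labels speak of oocytes after in vitro maturation, and the stage at which vitrification took place is not given in the sources used here. The strain and age of the animals, the agents that made up the cryoprotectant and the number of oocytes behind a library were not given either.

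GDF9 and BMP15 are made by the oocyte of the growing follicle and act on the granulosa and cumulus cells around it, where they promote proliferation, cumulus expansion and the metabolic support of the oocyte. Both are secreted as precursors that proprotein convertases cleave, and both can pair with each other in a heterodimer. GDF9 signals through the type II receptor BMPR2 and the type I receptor TGFBR1 to SMAD2 and SMAD3, and BMP15 through BMPR2 and BMPR1B to SMAD1 and SMAD5. BMP6 also activates the SMAD1 and SMAD5 branch, through ACVR1 among other receptors, and is expressed in mouse oocytes. Mutations of BMP15 and GDF9 alter ovulation rate in sheep, so the amounts of these ligands are of interest in ruminants.

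GDF9 (ENSBTAG00000009478) lay on chromosome 7 from 46064180 to 46067119 of the UMD3.1 build. BMP15 (ENSBTAG00000045782) lay on the X chromosome from 93971184 to 93977809, and BMP6 (ENSBTAG00000019234) on chromosome 23 from 47355128 to 47510231. None of the 3 spans overlapped another gene of the table. The gene nearest to GDF9 was UQCRQ, 1987 bases away. Whether reads were counted by strand is not given in the sources used here.

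Library totals were 6346848 to 8569618 counts in the 6 helium libraries and 1790900 to 2613014 in 5 of the 6 nitrogen libraries, with 7392972 in library 3 of nitrogen 6.6 M, and 1601519 to 2822837 in the 3 fresh libraries. Depth therefore moved with the coolant, and helium and fresh libraries shared no depth class on either side of 5000000 counts. Of 16 oocyte markers, 12 were found in the table by symbol and none of them was at 0 in any library, and their summed level was 4466 to 9388 CPM, which are counts scaled to the library total. The 20 cumulus and granulosa markers found summed to 335 to 611 CPM. STAR (140 to 283 CPM), HAS2 (83.5 to 126), VCAN (12.3 to 46.7), GJA1 (14.0 to 32.4) and SERPINE2 (7.44 to 61.8) were at 0 in no library. The same held for GATM and CD44, at lower levels. FSHR and FOXL2 were at 0 in all 15 libraries, and the remaining markers in 1 to 12. The 7 blood and immune markers found summed to 0 to 8.11 CPM. The labels do not say whether the libraries of a group came from separate animals or cultures, so p-values measure only how far these libraries differ among themselves, which may be a technical spread.

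BMP15 and GDF9 were among the abundant transcripts of every library, whereas BMP6 was close to the limit of detection, and all 3 passed the filter on low counts. On the FPKM scale, which corrects for gene length, BMP15 averaged 549.8 ± 165, GDF9 283.5 ± 72.2 and BMP6 1.85 ± 1.39 (SD, n = 15 libraries). Among all 24616 genes ranked by FPKM in a library, BMP15 held places 138 to 401 and GDF9 places 308 to 833. BMP6 held places 6338 to 10352. BMP15 was above GDF9 in each of the 15 libraries, by the FPKM ratio given further on.

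Values per library are given as CPM after TMM scaling, a library factor from trimmed log ratios between libraries, and libraries carry the numbers of the labels. GDF9 stood at 586, 623 and 665 CPM in helium 5.6 M libraries 3, 4 and 5, and at 597, 595 and 487 CPM in helium 6.6 M libraries 1, 2 and 3. It stood at 425, 596 and 389 CPM in nitrogen 5.6 M, at 489, 474 and 384 CPM in nitrogen 6.6 M, and at 422, 516 and 278 CPM in fresh libraries 1, 2 and 3. All 3 helium 5.6 M libraries lay above all 3 fresh libraries, while the other vitrified groups overlapped with fresh. The lowest GDF9 level of the series was that of fresh library 3 and the highest that of helium 5.6 M library 5.

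BMP15 stood at 734, 822 and 966 CPM in the helium 5.6 M libraries and at 887, 543 and 717 CPM in the helium 6.6 M libraries. It stood at 611, 716 and 368 CPM in nitrogen 5.6 M, at 501, 771 and 438 CPM in nitrogen 6.6 M, and at 503, 694 and 415 CPM in fresh. The helium 5.6 M libraries again lay above every fresh library, with no overlap. Library 3 was the lowest of the nitrogen 5.6 M, nitrogen 6.6 M and fresh groups for both GDF9 and BMP15.

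BMP6 rested on few reads: 13 to 44 counts in the helium libraries, 2 to 11 counts in the nitrogen libraries, and 0, 14 and 3 counts in fresh libraries 1, 2 and 3. That gave 2.27, 3.36 and 2.12 CPM in helium 5.6 M, 4.27, 5.72 and 3.05 CPM in helium 6.6 M, 2.11, 0.941 and 2.31 CPM in nitrogen 5.6 M, 3.04, 2.43 and 1.53 CPM in nitrogen 6.6 M, and 0, 7.01 and 1.26 CPM in fresh. The fresh group thus held both the lowest and the highest value of the series. The 0 in fresh library 1 allows up to 1.87 unscaled CPM at a floor of 3 counts, and the 14 counts of fresh library 2 gave 8.51 unscaled CPM with an exact Clopper-Pearson interval of 4.65 to 14.3. These limits cover counting error only, since the libraries were amplified and no molecular identifiers were reported.

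**Figure D1:**
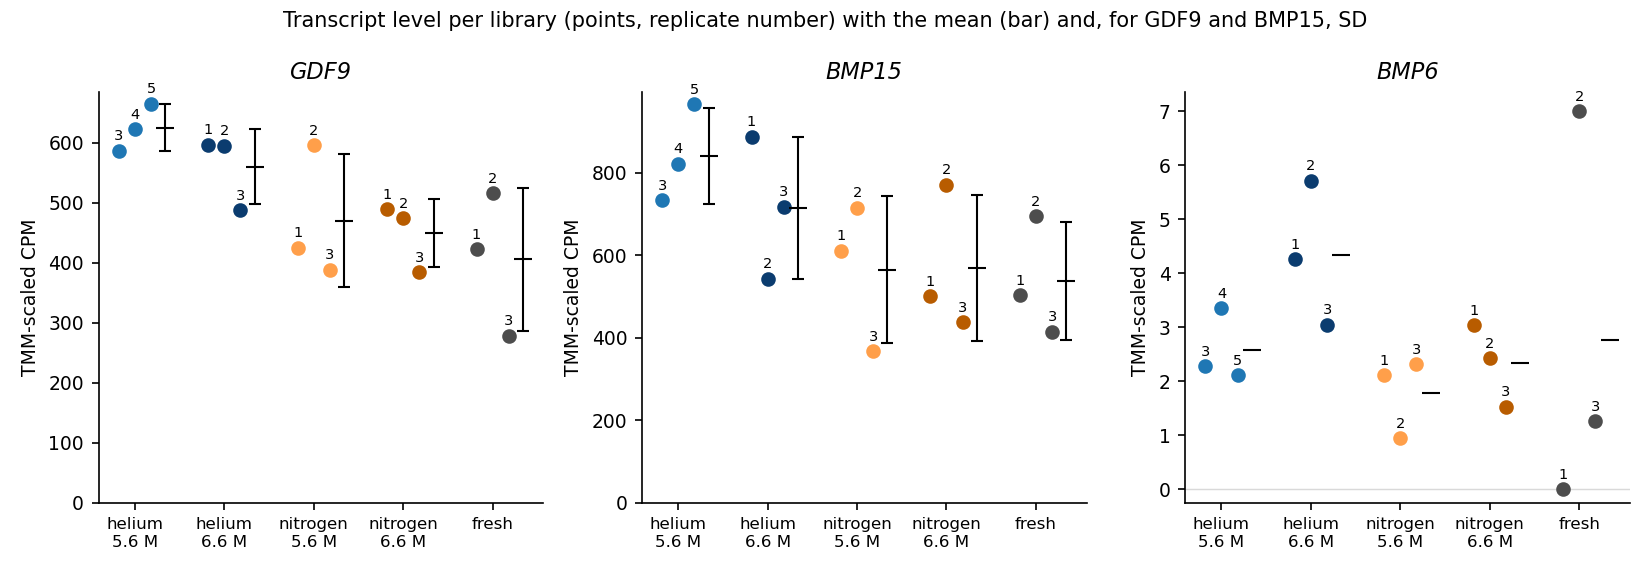
TMM-scaled CPM (vertical axis, linear, a separate scale in each panel) of GDF9, BMP15 and BMP6 in each library, by group from helium 5.6 M on the left to fresh on the right. Points are libraries with their label numbers, the short bar is the group mean, and the error bar is the SD of 3 libraries (not drawn for BMP6, whose fresh SD exceeds its mean). GDF9 and BMP15 were highest in helium 5.6 M, at means of 625 and 841 CPM, and the fresh BMP6 values ran from 0 to 7.01 CPM.

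The spread between libraries of GDF9 and BMP15 was far larger than the counting error. For GDF9 the coefficient of variation between the 3 libraries of a group ran from 6.29% in helium 5.6 M to 29.5% in fresh, where counting alone would give 1.45% and 3.66%. For BMP15 it ran from 13.9% in helium 5.6 M to 31.6% in nitrogen 5.6 M, where counting alone would give 1.26% and 3.05%. For BMP6 in the nitrogen groups, counting alone would give 55.1% at 5.6 M and 37.3% at 6.6 M, against observed values of 41.4% and 32.6%. In the other groups the observed BMP6 values were above those from counting. They were 26.1% against 23.1% in helium 5.6 M, 30.8% against 18.1% in helium 6.6 M and 136% against 61.5% in fresh.

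Group means of GDF9 ran in the order helium 5.6 M (625 ± 39.3 CPM), helium 6.6 M (560 ± 62.6 CPM), nitrogen 5.6 M (470 ± 111 CPM), nitrogen 6.6 M (449 ± 56.9 CPM) and fresh (405 ± 120 CPM; SD, n = 3 each). BMP15 followed nearly the same order, with 841 ± 117 CPM in helium 5.6 M, 716 ± 172 CPM in helium 6.6 M, 570 ± 177 CPM in nitrogen 6.6 M, 565 ± 179 CPM in nitrogen 5.6 M and 538 ± 143 CPM in fresh. Neighbours in both orders overlapped in range. Their means also differed by less than the larger of their SDs, except between helium 5.6 M and helium 6.6 M for GDF9, where the difference of 64.9 CPM was about as large as the SD of 62.6 CPM. For BMP6 the order was helium 6.6 M, fresh, helium 5.6 M, nitrogen 6.6 M and nitrogen 5.6 M, and again every neighbour overlapped.

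The first question was whether vitrified oocytes differed from fresh ones. GDF9 averaged 526 ± 96.2 CPM in the 12 vitrified libraries and 405 ± 120 CPM in the 3 fresh libraries (SD). BMP15 averaged 673 ± 183 CPM in vitrified and 538 ± 143 CPM in fresh libraries, and BMP6 2.76 ± 1.27 CPM in vitrified and 2.76 ± 3.74 CPM in fresh libraries. None of the 3 genes passed edgeR's quasi-likelihood test at an adjusted p of 0.05, against a background of 0.509% of the 8441 genes tested. The log2 fold change of GDF9 was 0.36 ± 0.18 (SE), with a 95% interval of -0.01 to 0.73 and an edgeR adjusted p of 0.378. That of BMP15 was 0.30 ± 0.22, with an interval of -0.15 to 0.76 and an edgeR adjusted p of 0.588. For BMP6 it was -0.17 ± 0.57, with an interval of -1.35 to 1.02, so neither a doubling nor a halving of that transcript could be told from no difference at this depth, and its sign was positive under 3 of 6 alternatives. Single fresh libraries moved these values: GDF9 had 0.17 without fresh library 3 and 0.56 without fresh library 2, and BMP15 0.16 and 0.52 with the same libraries left out, and neither gene passed. The labels name cDNA from single cells, but the number of oocytes behind a library is not given. Where a library held more than 1 cell, fewer cells of a type and less RNA per cell cannot be told apart.

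Helium 5.6 M was the vitrified group with the largest difference from fresh for GDF9 and BMP15. GDF9 had a log2 fold change of 0.62 ± 0.22, with a 95% interval of 0.17 to 1.08, and BMP15 one of 0.65 ± 0.27, with an interval of 0.08 to 1.21. The edgeR adjusted p was 0.184 for GDF9 and 0.279 for BMP15, so 0 of 3 genes passed, beside 0.474% of all genes tested. At an unadjusted p under 0.05 GDF9 and BMP15 were 2 of 3, beside 14.1% of all genes. Both also lay above every fresh library, as did 9.36% of all genes tested. A single library decided the call for GDF9: without fresh library 2, the highest of the fresh libraries, its log2 fold change was 0.83 and its edgeR adjusted p 0.0365, whereas without fresh library 3 they were 0.43 and 0.450. Without fresh library 2, 431 genes of the whole table were called in this comparison, against 40 with all libraries. BMP6 had a log2 fold change of -0.14 ± 0.64 in this comparison.

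In helium 6.6 M against fresh, GDF9 had a log2 fold change of 0.47 ± 0.22 (95% interval 0.01 to 0.92) and an edgeR adjusted p of 0.311. BMP15 had one of 0.41 ± 0.27 (interval -0.15 to 0.98) and BMP6 one of 0.60 ± 0.61 (interval -0.68 to 1.88). With 1 library left out GDF9 ran from 0.26 (without fresh library 3) to 0.65 (without fresh library 2) and BMP15 from 0.23 (without helium 6.6 M library 1) to 0.62 (without fresh library 2). BMP6 ran from 0.17 without fresh library 1 to 2.46 without fresh library 2, where its edgeR adjusted p was 0.0554. Without fresh library 2, 598 genes of the whole table were called in this comparison, against 53 with all libraries. Again 0 of 3 passed, beside 0.628% of all genes tested, and 1, GDF9, had an unadjusted p under 0.05, beside 15.5%. In nitrogen 5.6 M against fresh the values were 0.21 ± 0.22 for GDF9, 0.07 ± 0.27 for BMP15 and -0.69 ± 0.79 for BMP6, and 0 of 3 passed, beside 0.0118% of all genes. In nitrogen 6.6 M against fresh they were 0.15 ± 0.22 for GDF9, 0.08 ± 0.27 for BMP15 and -0.43 ± 0.71 for BMP6, and 0 of 3 passed, beside 0.0474% of all genes. The intervals in the nitrogen groups reached 0.67 for GDF9 and 0.65 for BMP15 on the log2 scale. Scaled by library totals alone, without TMM, the BMP15 values in the nitrogen groups were -0.020 at 5.6 M and -0.011 at 6.6 M. These 4 comparisons share the fresh libraries.

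The second question was whether the colder coolant made a difference. GDF9 averaged 592 ± 58.7 CPM in the 6 helium libraries and 459 ± 79.6 CPM in the 6 nitrogen libraries (SD). BMP15 averaged 778 ± 148 CPM in helium and 567 ± 159 CPM in nitrogen libraries, and BMP6 3.46 ± 1.35 CPM in helium and 2.06 ± 0.734 CPM in nitrogen libraries. For each of GDF9 and BMP15, 3 of the 6 helium libraries lay above every nitrogen library and none lay below, and for BMP6 4 of 6 did. The lowest of those 3 for GDF9, helium 6.6 M library 1, stood at 596.7 CPM, beside 595.9 CPM in nitrogen 5.6 M library 2. The share of all genes with such counts was not computed. The log2 fold changes were 0.36 ± 0.15 for GDF9, with a 95% interval of 0.04 to 0.69, and 0.45 ± 0.19 for BMP15, with an interval of 0.05 to 0.85. For BMP6 it was 0.78 ± 0.45, with an interval of -0.16 to 1.73. The edgeR adjusted p was 0.256 for both GDF9 and BMP15 and 0.402 for BMP6, so 0 of 3 passed, beside 0.663% of all genes tested. At an unadjusted p under 0.05 they were 2 of 3, beside 16% of all genes.

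Depth was split almost as the coolants were, and the within-class values were as follows. Among the 7 deeper libraries, GDF9 averaged 592 ± 58.7 CPM in the 6 helium libraries and stood at 384 CPM in the 1 nitrogen library. BMP15 averaged 778 ± 148 CPM in those helium libraries and stood at 438 CPM in that nitrogen library. With 1 nitrogen library in this class no test of the coolants within it could pass the threshold, and none is given. Among the 8 shallower libraries, GDF9 averaged 474 ± 78.8 CPM in 5 nitrogen libraries and 405 ± 120 CPM in 3 fresh libraries (SD; exact permutation p = 0.393, two-sided). BMP15 averaged 593 ± 163 CPM in the nitrogen and 538 ± 143 CPM in the fresh libraries of that class (SD; exact permutation p = 0.714, two-sided). BMP6 averaged 2.17 ± 0.767 CPM in the nitrogen and 2.76 ± 3.74 CPM in the fresh libraries of that class (SD; exact permutation p = 0.714, two-sided). With depth class as a term of the edgeR fit, the helium to nitrogen difference was 0.64 for GDF9 and 0.91 for BMP15 on the log2 scale, and neither passed (adjusted p 0.359 and 0.301). With the same term GDF9 had 0.95 and BMP15 1.18 in helium 5.6 M against fresh, and 0.79 and 0.95 in helium 6.6 M against fresh, and none of these passed (adjusted p 0.384 to 0.510). The depth term is estimated from nitrogen 6.6 M alone, the 1 group with libraries of both classes. Since every helium library was deep and every fresh library shallow, the helium to fresh differences and depth cannot be told apart within a class.

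The other oocyte markers, read in the same libraries, had a sum of 7230 to 9388 CPM in helium, 5168 to 7649 CPM in nitrogen and 4466 to 9100 CPM in fresh libraries. Of the 12 markers, 11 had a log2 fold change above 0 in helium against nitrogen, beside 53.4% of all genes tested, with a median of 0.37, beside 0.03 over all genes. In all vitrified against fresh 7 of 12 were above 0, beside 46.5% of all genes, with a median of 0.04. Against fresh it was 9 in helium 5.6 M (median 0.14), 9 in helium 6.6 M (0.41), 4 in nitrogen 5.6 M (-0.12) and 5 in nitrogen 6.6 M (-0.11). None of the 12 passed the edgeR test in these comparisons. Set against the marker counts of the same library, GDF9 came to 7.45 ± 0.676% in helium and 7.17 ± 1.53% in nitrogen libraries (SD, n = 6 each). BMP15 came to 9.81 ± 1.86% in helium and 8.93 ± 2.90% in nitrogen libraries on the same measure. Across all vitrified libraries GDF9 came to 7.31 ± 1.14%, against 6.67 ± 2.32% in fresh libraries, and BMP15 to 9.37 ± 2.37%, against 8.73 ± 2.18%. The part of depth or of the shared marker level in the differences between coolants was not tested.

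The third question was whether the cryoprotectant concentration made a difference. GDF9 averaged 504 ± 80.8 CPM in the 6 libraries at 6.6 M and 547 ± 113 CPM in the 6 libraries at 5.6 M (SD). BMP15 averaged 643 ± 175 CPM at 6.6 M and 703 ± 203 CPM at 5.6 M, and BMP6 3.34 ± 1.47 CPM at 6.6 M and 2.18 ± 0.768 CPM at 5.6 M. The log2 fold changes were -0.11 ± 0.15 for GDF9, -0.11 ± 0.19 for BMP15 and 0.50 ± 0.46 for BMP6, and each interval included 0. No gene passed edgeR's test in this comparison (0% of 8441), where 189 genes had an unadjusted p under 0.05, and DESeq2 and limma called 0 genes as well. The interaction of coolant and concentration was -0.09 ± 0.31 for GDF9, -0.24 ± 0.38 for BMP15 and 0.49 ± 0.93 for BMP6. There too edgeR called no gene (0% of 8441), with 178 at an unadjusted p under 0.05, and DESeq2 and limma called 0.

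**Figure D2:**
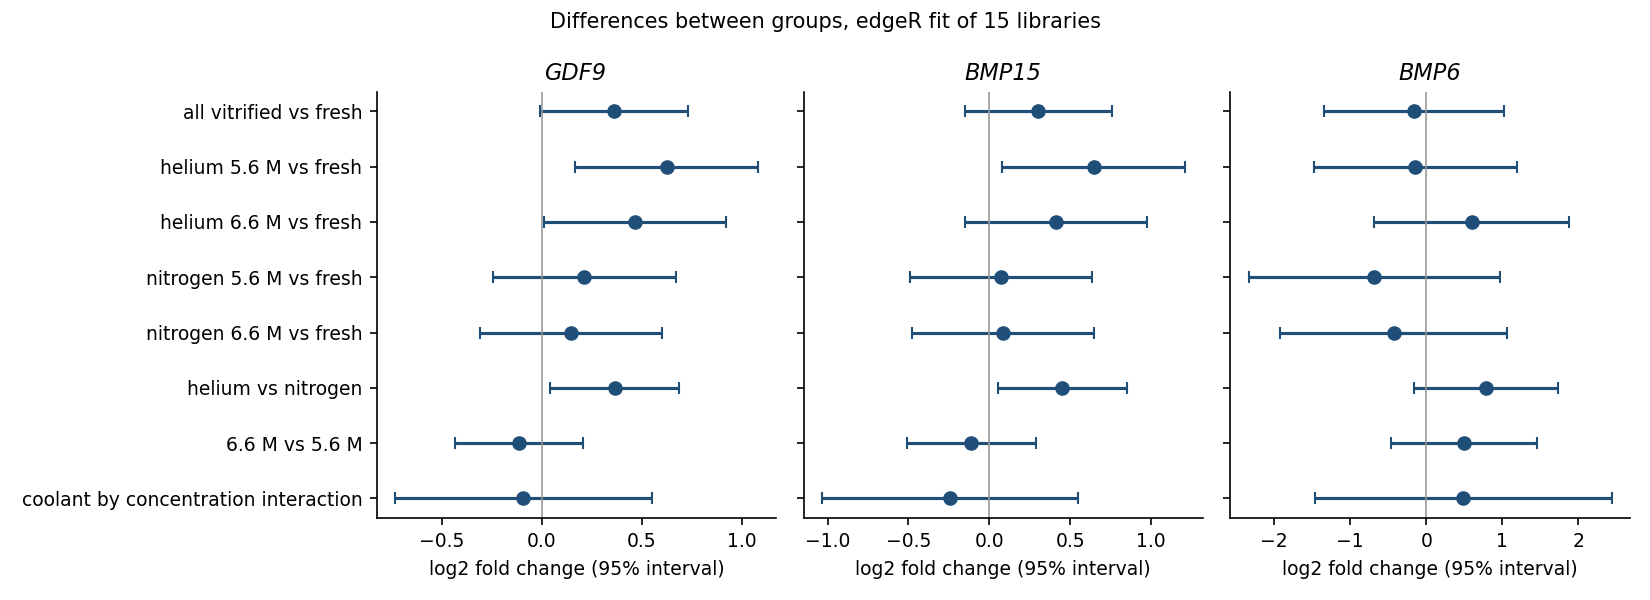
Log2 fold change of GDF9, BMP15 and BMP6 (horizontal axes, a separate scale for each gene) in 8 comparisons from 1 edgeR fit of 15 libraries. Points are estimates, lines are 95% intervals before any adjustment, and the vertical line marks no difference. The GDF9 and BMP15 intervals lay above 0 in helium 5.6 M against fresh and in helium against nitrogen, and GDF9 also in helium 6.6 M against fresh, but no comparison passed after adjustment.

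GDF9 and BMP15 varied together from library to library. Over the 15 libraries their log2 CPM levels had a Pearson r of 0.799 (permutation p = 0.00044) and a Spearman rho of 0.804 (permutation p = 0.00052). Deviations from the group means, which leave out what the groups share, had an r of 0.667 and a rho of 0.55. No p-value is given for them. The deviations of a group sum to 0, so exchanging them freely between groups makes a permutation p too small. Without fresh library 3 and helium 5.6 M library 5, the 2 farthest from the median GDF9 level, r was 0.744 (permutation p = 0.00474) over 13 libraries. In the 7 deeper libraries r was 0.786 (exact permutation p = 0.0591) and rho 0.857 (exact permutation p = 0.0238). In the 8 shallower ones r was 0.727 (exact permutation p = 0.0402) and rho 0.714 (exact permutation p = 0.0576), so in each class 1 of the 2 measures missed 0.05. Adjusted over the 6 relations computed, the permutation p of Pearson's r was 0.00132 for all libraries, 0.0482 in the shallower and 0.0591 in the deeper class. The 2 levels of a library share its total, its scaling and its content of oocyte RNA.

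**Figure D3:**
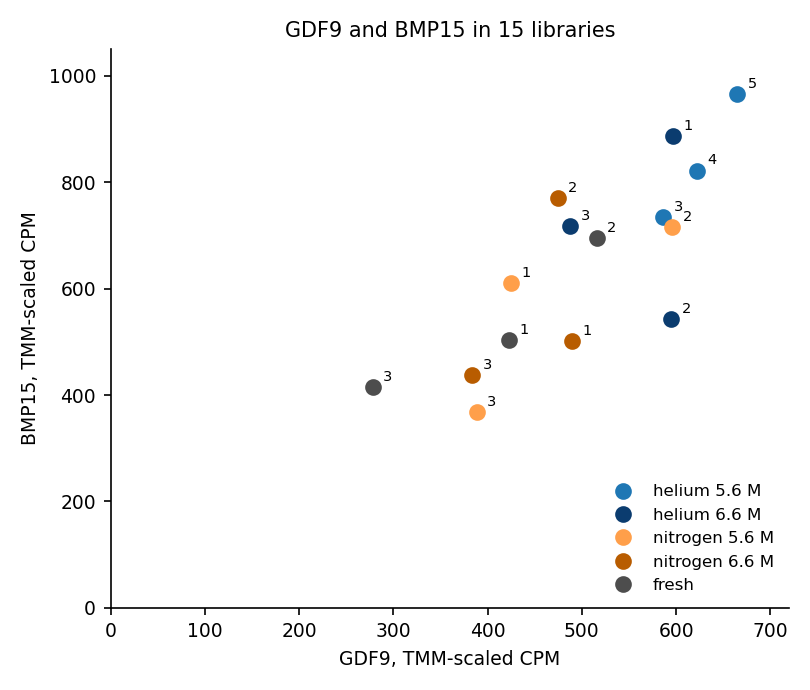
GDF9 (horizontal axis) against BMP15 (vertical axis) in TMM-scaled CPM, with 1 point per library, coloured by group and marked with its label number. The points ran from fresh library 3 at 278 and 415 CPM to helium 5.6 M library 5 at 665 and 966 CPM, and helium 6.6 M library 2 lay below the others at its GDF9 level, at 595 and 543 CPM.

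The balance of the pair overlapped between all groups. The ratio of GDF9 to BMP15 on the FPKM scale was 0.529 ± 0.0974 over the 15 libraries (SD) and ranged from 0.407 to 0.725. It was 0.529, 0.501 and 0.456 in helium 5.6 M, 0.445, 0.725 and 0.450 in helium 6.6 M, 0.460, 0.551 and 0.699 in nitrogen 5.6 M, 0.647, 0.407 and 0.580 in nitrogen 6.6 M, and 0.555, 0.492 and 0.444 in fresh libraries. The 3 highest values were those of helium 6.6 M library 2, nitrogen 5.6 M library 3 and nitrogen 6.6 M library 1. The mean was 0.538 ± 0.106 in vitrified and 0.497 ± 0.0560 in fresh libraries (SD, n = 12 and 3; exact permutation p = 0.593 over 455 splits, two-sided). It was 0.518 ± 0.107 in helium and 0.558 ± 0.110 in nitrogen libraries (SD, n = 6 each; exact permutation p = 0.530 over 924 splits, two-sided).

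Other transcripts followed each ligand more closely still. Of 4960 genes with a mean of at least 10 CPM, 23 had a higher r with GDF9 than BMP15 did, and 43 had a higher r with BMP15 than GDF9 did. On deviations from the group means these numbers were 102 and 226. The 5 most like GDF9 in level over 15 libraries were CDK5 (r = 0.886), OXA1L (0.863), GABARAP (0.859), CD9 (0.856) and HSPA8 (0.855). CD9 is the egg surface protein needed for fusion with sperm in mouse, and HSPA8 a constitutive heat shock protein. The 5 most like BMP15 were MAPRE2 (r = 0.921), CEP85 (0.919), TUBGCP4 (0.901), G3BP1 (0.893) and EXT1 (0.886). MAPRE2 binds microtubule ends and TUBGCP4 belongs to the gamma-tubulin complex. On deviations from the group means the closest included SKOR1 (0.922), TRAFD1 (0.916), MANSC1 (0.877) and MCFD2 (0.859) for GDF9, and KIF24 (0.904), LMAN1 (0.900), ARHGAP35 (0.896), MAPRE2 (0.892) and WAC (0.891) for BMP15. Of the genes named, only MAPRE2 appeared in more than 1 of these 4 sets. These values are descriptions over libraries that share depth and scaling.

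The wider pathway was read from 7 lists with 112 symbols, of which 99 were in the table and 36 passed the filter on low counts. None of the 36 passed edgeR's test in any of the 8 comparisons. At an adjusted p under 0.05 in all vitrified against fresh, DESeq2 called 1 of the 36, beside 191 of the 8441 genes. Limma called 0 there, beside 70. The edgeR count at an unadjusted p under 0.05 was 8 in that comparison, beside 13.6% of all genes. Against fresh it was 10 in helium 5.6 M (14.1% of all genes), 12 in helium 6.6 M (15.5%), 5 in nitrogen 5.6 M (6.74%) and 4 in nitrogen 6.6 M (8.23%). It was 7 in helium against nitrogen (16%), 1 between concentrations (2.24%) and 3 in the interaction (2.11%). Of the 36 genes, PCSK1 alone had all 12 vitrified libraries on 1 side of all 3 fresh libraries, as had 1.32% of all genes tested on the higher side and 0.711% on the lower.

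Among the other ligands of the family, BMP4 alone of 20 genes in the table passed the filter, at a mean of 8.97 FPKM. BMP4 acts through the same SMAD1 and SMAD5 branch as BMP15, and its log2 fold change in vitrified against fresh was -0.11 ± 0.23. TGFB1 and INHBB were at 0 in all 15 libraries, and INHBA, a subunit of activin A, reached at most 14 counts.

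Of the proprotein convertases, PCSK1 had the highest level of the 3 tested, at 2.24 FPKM. It averaged 6.64 ± 1.42 CPM in vitrified libraries (4.86 to 9.28, n = 12) and 3.48 ± 0.527 CPM in fresh libraries (2.94 to 3.99 CPM, from 6 to 7 counts, n = 3). The groups did not overlap, the log2 fold change was 0.93 ± 0.31 and the edgeR adjusted p was 0.185. MBTPS1 (0.809 FPKM) and PCSK7 (0.792 FPKM) had log2 fold changes of -0.17 ± 0.34 and -0.67 ± 0.38. FURIN, a widely expressed convertase, reached at most 14 counts and was at 0 in 8 libraries, and was not tested.

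Of the secreted antagonists and binding proteins, SOSTDC1 was the most abundant of 3 tested, at 80.4 FPKM. SOSTDC1 binds BMP ligands and is also known as USAG1. It averaged 151 ± 32.5 CPM in vitrified libraries (110 to 206, n = 12) and 93.4 ± 23.0 CPM in fresh libraries (73.2, 88.6 and 118, n = 3), so the groups overlapped at their edges. Its log2 fold change was 0.69 ± 0.22 with an edgeR adjusted p of 0.158, and single vitrified groups gave 0.65 to 0.73. FSTL1 (14.3 FPKM) had a log2 fold change of -0.41 ± 0.17 and LTBP1 (7.80 FPKM), which binds latent TGF-beta, one of 0.26 ± 0.17.

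Receptors of all 3 ligands were present in the oocyte RNA. By mean FPKM the highest of the 9 tested were ACVR1 (66.6), BMPR1A (47.0), BMPR1B (17.4), BMPR2 (6.08), TGFBR1 (4.92) and ACVR2B (3.60). ACVR1, a type I receptor of BMP6, stood at 124, 137 and 172 CPM in helium 5.6 M, 149, 153 and 164 CPM in helium 6.6 M, 158, 184 and 205 CPM in nitrogen 5.6 M, 164, 181 and 247 CPM in nitrogen 6.6 M, and 215, 216 and 324 CPM in fresh libraries, each group in rising order. Every vitrified library but 1 of nitrogen 6.6 M lay below all fresh libraries. Whole groups lay below fresh for 8.79% of all genes tested in helium 5.6 M and 8.25% in helium 6.6 M. That share was not computed for the nitrogen groups. In vitrified against fresh the log2 fold change of ACVR1 was -0.58 ± 0.16, with a 95% interval of -0.91 to -0.25 and an edgeR adjusted p of 0.103, the lowest of the 36 genes. The call depended on the tool and on 1 library, since DESeq2 gave an adjusted p of 0.0409 and edgeR without fresh library 2 one of 0.0438. Without fresh library 3 the log2 fold change was -0.34. With the replicate block, under which helium 5.6 M rested on 1 library, it was -0.56. Without fresh library 2 ACVR1 also passed in helium 5.6 M (edgeR adjusted p 0.0262) and in helium 6.6 M against fresh (0.0316). Genes called over the whole table without that library were 230 in all vitrified, 431 in helium 5.6 M and 598 in helium 6.6 M. With all libraries they were 43, 40 and 53. The receptors of BMP15 and GDF9 had values of 0.16 ± 0.19 for BMPR1B, 0.08 ± 0.26 for BMPR2 and -0.35 ± 0.25 for TGFBR1. Those of BMPR1A and ACVR2B were -0.13 ± 0.14 and 0.29 ± 0.47, and the median over the 9 receptors was 0.04, beside -0.03 over all genes tested. TGFBR1, like ACVR1, lay below all fresh libraries in every library of helium 5.6 M, helium 6.6 M and nitrogen 5.6 M.

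Of 11 SMADs and regulators tested, ID3 was by far the most abundant, at 2851 FPKM. ID3 is a helix-loop-helix inhibitor and a standard target gene of the SMAD1 and SMAD5 branch. It averaged 3387 ± 862 CPM in helium and 2102 ± 800 CPM in nitrogen libraries (SD, n = 6 each), and the ranges of 2424 to 4507 CPM in helium and 1464 to 3571 CPM in nitrogen overlapped. Its log2 fold change was 0.70 ± 0.23 in helium against nitrogen (edgeR adjusted p = 0.143) and 0.37 ± 0.26 in vitrified against fresh. It passed in helium against nitrogen without library 1 of nitrogen 6.6 M (log2 fold change 0.92, edgeR adjusted p = 0.0438). In that setting 71 genes of the whole table were called, against 56 with all libraries.

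SMAD5 and SMAD1, which carry BMP15 and BMP6 signals, were lower in every helium library than in any fresh library, as were 8.79% of all genes tested in helium 5.6 M and 8.25% in helium 6.6 M. Of the 36 pathway genes, 7 lay wholly below fresh in helium 5.6 M (ACVR1, TGFBR1, SMAD1, SMAD5, ID2, FSTL1 and FIGLA). In helium 6.6 M 4 did (ACVR1, TGFBR1, SMAD1 and SMAD5). Wholly above fresh were 2 in helium 5.6 M and 3 in helium 6.6 M. SMAD5 averaged 272 ± 18.1 CPM in helium (244 to 291), 344 ± 17.3 CPM in nitrogen (329 to 365; SD, n = 6 each) and 384 ± 68.0 CPM in fresh libraries (305, 421 and 425, n = 3). Its 6 helium libraries lay below all 6 nitrogen libraries as well, which 2.63% of all genes tested did, with a log2 fold change of -0.34 ± 0.12 and an edgeR adjusted p of 0.161. DESeq2 gave this difference an adjusted p of 0.0430, and edgeR on the 4 vitrified groups alone one of 0.0424. Without fresh library 2 SMAD5 also passed in helium 5.6 M (log2 fold change -0.58, edgeR adjusted p 0.0423) and in helium 6.6 M against fresh (-0.73, 0.0128). SMAD1 averaged 73.7 ± 7.98 CPM in helium, 101 ± 20.5 CPM in nitrogen and 115 ± 21.4 CPM in fresh libraries, with a log2 fold change of -0.72 ± 0.21 in helium 6.6 M against fresh (edgeR adjusted p = 0.115). Being lower in helium, both ran opposite to GDF9, BMP15 and ID3. SMAD2, of the GDF9 branch, averaged 235 ± 109 CPM in vitrified and 145 ± 68.0 CPM in fresh libraries (log2 fold change 0.69 ± 0.42). TGIF1 (170 FPKM) and USP15 (56.6 FPKM), a co-repressor and a deubiquitinase of the pathway, had log2 fold changes of -0.31 ± 0.20 and 0.06 ± 0.16 in vitrified against fresh. The median over the 11 genes was -0.31.

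Of the oocyte transcription factors known from mouse to act on Gdf9 and Bmp15, 3 were tested. LHX8 (53.0 FPKM) averaged 92.7 ± 11.4 CPM in vitrified and 69.7 ± 7.92 CPM in fresh libraries, with a log2 fold change of 0.41 ± 0.15 and an edgeR adjusted p of 0.222. FIGLA (21.7 FPKM) had one of -0.05 ± 0.28 and NOBOX (2.84 FPKM) one of -0.69 ± 0.41. NOBOX rested on 3 to 73 counts, and its log2 fold change without fresh library 2 was 0.25.

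Cumulus genes that GDF9 or BMP15 regulate in mouse follicles were read in these denuded oocytes too, and 6 of 16 in the table were tested. LDHA (60.1 FPKM), HAS2 (36.6 FPKM) and PTGS2 (19.9 FPKM) had log2 fold changes of 0.10 ± 0.17, -0.27 ± 0.15 and -0.30 ± 0.17 in vitrified against fresh. VCAN and PTX3 had 0.28 ± 0.28 and -0.83 ± 0.53. TNFAIP6, a matrix protein of the expanding cumulus, stood at 0.129, 6.83 and 7.91 CPM in helium 5.6 M and at 0, 9.01 and 27.7 CPM in helium 6.6 M, against at most 0.941 CPM in nitrogen and 0, 0.839 and 1.50 CPM in fresh libraries. The 4 highest values were thus those of 4 helium libraries, and the other 2 helium libraries lay within the range of nitrogen. Its log2 fold change in helium against nitrogen was 4.48 ± 1.24 with an edgeR adjusted p of 0.105, and it passed without library 1 of helium 6.6 M (adjusted p 0.0222). The summed cumulus and granulosa markers, of which TNFAIP6 is 1, were 343 to 611 CPM in helium, 345 to 378 CPM in nitrogen and 335 to 495 CPM in fresh libraries. Of the 9 tested, 1 passed in helium 6.6 M against fresh, beside 0.628% of all genes tested. It was SERPINE2, a secreted protease inhibitor (log2 fold change 1.50 ± 0.32, edgeR adjusted p 0.0317). With depth class as a term, 0 genes of the whole table passed in that comparison. At an unadjusted p under 0.05 there were 5 of the 9, beside 15.5% of all genes. CD3E, a T cell receptor subunit and the 1 blood and immune marker tested, had log2 fold changes of 1.40 ± 0.63 in helium 5.6 M, 1.71 ± 0.62 in helium 6.6 M and 1.34 ± 0.58 in all vitrified against fresh, and did not pass. The blood and immune markers summed to 2.94 to 8.11 CPM in helium, 1.71 to 5.53 CPM in nitrogen and 0 to 3.65 CPM in fresh libraries. The part of these other cell types in the differences of GDF9, BMP15 and the pathway genes was not tested.

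**Figure D4:**
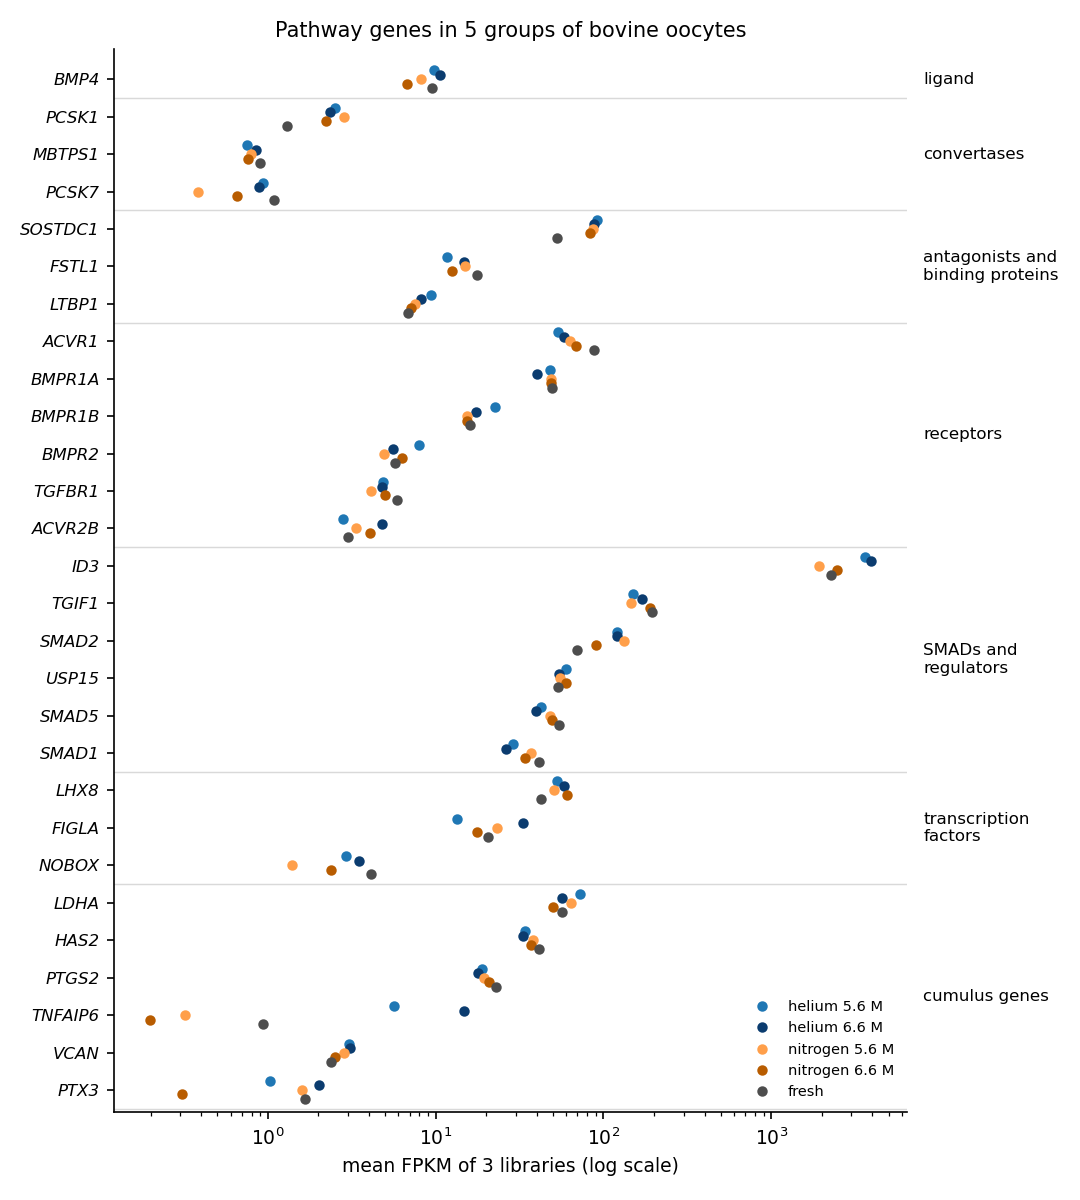
Mean FPKM of 3 libraries (horizontal axis, log scale) in each of 5 groups for the pathway genes named in the text, ordered by role from ligand to cumulus genes, with 1 coloured point per group. ID3 lay above all others at 2851 FPKM over all libraries, ACVR1 and SMAD5 were highest in fresh libraries, and TNFAIP6 was higher in the helium groups than in the nitrogen and fresh groups.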

How the data were processed

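Raw counts per gene and FPKM values were deposited by the authors in 1 table of 15 libraries. Per the labels, cDNA from single cells was made with SMARTer kits, and libraries with SMART-Seq and Ovation kits. HISAT2 2.0.4, StringTie 1.3.0 and build UMD3.1 appear in the submitters' processing notes, with no role or order. FPKM, by the authors per the file headers, equalled the count over gene length and library total within 0.1% in all 180473 values above 0. Depth was 1601519 to 8569618 counts. In R 4.3.3, edgeR 4.0.16 (filterByExpr, 8441 genes, TMM, 1 robust quasi-likelihood fit of 5 groups, no replicate block, Benjamini-Hochberg over 8441 genes, threshold 0.05) gave each contrast. Alternatives were DESeq2 1.42.0, no filter, limma 3.58.1 on log2(FPKM + 1), a replicate block, only the groups compared and each library left out, and, chosen after seeing the data, depth class (split at 5000000 counts) and library totals without TMM. Ratios and correlations used permutation tests (scipy 1.17.1, up to 100000 resamples). Only the edgeR test was tried on simulated counts, for all vitrified against fresh and helium against nitrogen. Between libraries of 1 group the chi-square of counts was 5.52 to 30.0 times its degrees of freedom, and no library was a repeat of another. Same-number deviations correlated over 0.1 in all 3 pairs only between helium 6.6 M and fresh (0.147, 0.306 and 0.227).

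The 3 genes and the gene lists were chosen with earlier results of these data known. Named are the 3 genes and, of each list, up to 6 with the highest mean FPKM among the tested; by likeness, the 5 genes with the highest r among those with a mean of at least 10 CPM, of which 1 is not reported here. FURIN, TGFB1, INHBA and INHBB were named after their values were seen. No sequences were used here.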

Additional observations from a re-analysis of the deposited data

Results flagged for a closer look

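The ratio of GDF9 to BMP15 on the FPKM scale was 0.725 in helium 6.6 M library 2, far above the other 5 helium libraries, which ran from 0.445 to 0.529. Of 16 combinations of a quantity and a set of libraries looked at in this way it was the only 1 with such an outlying value. Chance alone gives about 1 in 20 for a single look, and the 16 looks share libraries. On that scale GDF9 in the library was the highest of the 6, at 370.3 FPKM against 280.4 to 360.4 FPKM in the others, and BMP15 the lowest, at 510.5 FPKM against 623 to 789.5 FPKM. In CPM after TMM scaling GDF9 stood at 595, within the range of the other helium libraries, and BMP15 at 543 was again the lowest. The library also had the highest sum of cumulus and granulosa markers, 611 CPM against 343 to 399 CPM in the other helium libraries, and their part in the ratio was not tested.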

How the results depend on the processing

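Of the member results, GDF9 kept its direction in 55 of 55 alternatives other than leaving a library out, BMP15 in 53 of 55 and BMP6 in 46 of 53, and none passed the threshold in them. DESeq2 gave BMP6 no adjusted p in any single vitrified group against fresh or in helium against nitrogen, so the threshold was not applied there. The log2 fold changes that turned were those of BMP6 in all vitrified against fresh (0.28 with limma on log2(FPKM + 1), 0.040 with the replicate block, 0.33 with depth class), in helium 5.6 M (0.27 with limma, 0.25 with the replicate block, 0.67 with depth class) and in nitrogen 6.6 M against fresh (0.13 with limma), and those of BMP15 in nitrogen 5.6 M (-0.020) and nitrogen 6.6 M (-0.011) against fresh with library totals without TMM, where the median of all genes in helium against nitrogen was 0.12, against 0.03 with TMM. With depth class, BMPR2 (-0.15), USP15 (-0.21) and TNFAIP6 (-2.21) turned in vitrified against fresh. The replicate block changed no call of a member. On levels, the correlation of GDF9 with BMP15 was past 0.05 in every set of libraries but the depth classes. There r in the 7 deeper (0.786, exact permutation p = 0.0591) and rho in the 8 shallower (0.714, exact permutation p = 0.0576) missed it. The cause of these shifts was not tested.

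Leaving out 1 library at a time, GDF9 in helium 5.6 M against fresh ran from 0.43 to 0.83. It passed without fresh library 2, where 431 genes of the whole table were called. The log2 fold change ran from 0.017 to 0.41 for GDF9 in nitrogen 5.6 M against fresh, and between concentrations from -0.18 to -0.012 for GDF9 and -0.26 to -0.011 for BMP15. The ranges that crossed 0 were, for BMP6, -0.59 to 1.71 in all vitrified, -0.59 to 1.73 in helium 5.6 M, -1.09 to 1.19 in nitrogen 5.6 M and -0.85 to 1.45 in nitrogen 6.6 M, each against fresh, with fresh library 2 left out at the high end. They were -0.081 to 0.36 for BMP15 in nitrogen 5.6 M, -0.17 to 0.30 for BMP15 and -0.049 to 0.35 for GDF9 in nitrogen 6.6 M against fresh, and -0.26 to 0.067 for GDF9 and -0.43 to 0.080 for BMP15 in the interaction. In all vitrified against fresh they were -0.17 to 0.00304 for BMP4, -0.26 to 0.064 for BMPR1A, -0.029 to 0.18 for BMPR2, -0.043 to 0.88 for ACVR2B, -0.069 to 0.18 for USP15, -0.17 to 0.25 for FIGLA, -1.004 to 0.25 for NOBOX and -0.032 to 0.31 for LDHA.

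The number of genes called over the whole table, which sets the adjusted p, moved far more. It was 43 in all vitrified against fresh, against 191 with DESeq2, 142 with no filter, 70 with limma, 1 with depth class and 5 to 230 with a library left out. Counts with the block are left out where helium 5.6 M takes part, since that group then rests on 1 library. For helium 5.6 M against fresh the number of genes called was 40, against 244 (DESeq2), 160 (no filter), 5 (only the groups compared), 0 (depth class) and 1 to 431. For helium 6.6 M it was 53, against 279 (DESeq2), 239 (no filter), 3 (block), 2 (only the groups compared), 0 (depth class), 33 (without TMM) and 3 to 598. For nitrogen 5.6 M it was 1, against 32 (DESeq2), 26 (no filter), 7 (limma), 2 (depth class), 6 (without TMM) and 1 to 3, and for nitrogen 6.6 M 4, against 69 (DESeq2), 60 (no filter), 13 (limma), 1 (block, only the groups and depth class), 12 (without TMM) and 1 to 23. For helium against nitrogen it was 56, against 269 (DESeq2), 344 (no filter), 24 (limma), 308 (only the groups), 13 (depth class), 31 (without TMM) and 15 to 71. No filter gave 3 genes between concentrations and 2 in the interaction, where the count was otherwise 0. Under the alternatives, pathway genes were called as follows: with DESeq2 ACVR1 in all vitrified, helium 5.6 M and helium 6.6 M, SMAD1 and SMAD5 in helium 6.6 M against fresh, and SMAD5 in helium against nitrogen; with no filter SMAD2 and SOSTDC1 in all vitrified (adjusted p 0.0244 each), SMAD2 in nitrogen 5.6 M, TNFAIP6 in both helium groups against fresh, and TNFAIP6 and ID3 in helium against nitrogen; with only the groups compared SMAD5, and with depth class TGFBR2, in helium against nitrogen. With a library left out, ACVR1 (all vitrified and both helium groups against fresh) and SMAD5 (both helium groups) were called without fresh library 2, and in helium against nitrogen TNFAIP6 without helium 6.6 M library 1 and ID3 without nitrogen 6.6 M library 1. The 230, 431 and 598 genes called in all vitrified, helium 5.6 M and helium 6.6 M against fresh were those without fresh library 2. Depth limits BMP6 most, at 0 to 44 counts.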
